A study of Homo sapiens with 9 samples.

Results

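The genes described here are 8 annexins, ANXA1, ANXA2, ANXA3, ANXA4, ANXA5, ANXA6, ANXA7 and ANXA11, out of 38478 gene rows in the deposited table. They were taken by symbol. ANXA6 was chosen because it was lower in cells carrying 2 targeting RNAs, and the other 7 were chosen as its paralogues. The differences of ANXA6 in those comparisons are therefore given as a description, with no test. Of the 8, 7 passed the filter on low counts and were among 13262 genes tested, and ANXA3 did not pass it.

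Messenger RNA was sequenced in OPM-1 cells, a human line derived from plasma cell myeloma, whose genotype is given as WT. All cells stably expressed a targeting RNA. In gLuc, the control group, it was directed at luciferase, a gene that human cells lack. In gFBXW7 it was directed at FBXW7, which encodes the substrate-binding subunit of a ubiquitin ligase. In the third group, written here as gFBXW7_gKMT2D, it was combined with an RNA against KMT2D, which encodes a histone H3 lysine 4 methyltransferase. Each group had 3 libraries, described as independent biological replicates. A group with the RNA against KMT2D alone was not analysed here, so that RNA was compared only in cells that also carried the one against FBXW7. The labels do not say how the RNAs act on their targets or whether the cells were clones or pools.

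Annexins are proteins that bind acidic phospholipids, such as phosphatidylserine, when calcium rises. They share a conserved core of repeats that docks on the membrane, and a variable N-terminal tail that binds partner proteins, among them members of the S100 family. ANXA6 is the annexin with a duplicated core. It is known as a scaffold at the plasma membrane and on late endosomes, where it has been linked to cholesterol transport, to inactivation of Ras and to membrane repair. ANXA5 is the annexin used to stain phosphatidylserine on dying cells.

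Library totals ran from 16337492 to 27076242 reads. Mitochondrial DNA genes took 0.645% to 1.54% of reads in gFBXW7. That was below every library of gLuc (1.65% to 3.34%) and of gFBXW7_gKMT2D (2.05% to 3.69%). Ribosomal protein genes took from 5.03% to 8.56% of reads in 8 libraries and 11.2% in gFBXW7_gKMT2D replicate 3, which also had the lowest scaling factor (0.854). Values without this library are given below for the annexins and for the partner genes whose differences are described by library. FBXW7 messenger RNA ranged from 45.2 to 71.7 CPM (counts scaled to library size) and KMT2D from 28.6 to 107 CPM. For both genes the groups overlapped in all 3 comparisons. Neither targeted gene had an adjusted p (edgeR) below 0.9 in any comparison, so their messenger RNA levels gave no check of the labels. All 10 plasma cell markers passed the filter, with a summed level of 11240 to 17260 CPM over the 9 libraries. Of 31 markers of other blood, stromal or epithelial cells, only HBB passed it (21.8 to 43.7 CPM), and the summed myeloid, T and NK cell and B cell markers each stayed at or below 0.431 CPM.

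ANXA6 lies on chromosome 5, from 151100712 to 151157882 on the minus strand (GRCh38). No other gene in GENCODE overlaps it. RefSeq gives it 2 start sites, and the deposited values count reads from both together. The stretches that precede these starts are printed because ANXA6 is the gene on which the comparison turns. Both come from RefSeq (GRCh38.p14) and are written 5′ to 3′ on the minus strand, with CpG dinucleotides in capitals. The stretch at chr5:151157883-151158029 precedes the first start and leaves out 103 bases that GENCODE gives as exon. The stretch at chr5:151141685-151141934 lies in an intron and precedes the second start.
ANXA6 first start: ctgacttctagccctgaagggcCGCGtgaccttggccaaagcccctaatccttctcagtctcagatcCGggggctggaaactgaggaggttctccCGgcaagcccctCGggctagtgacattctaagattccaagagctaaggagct
ANXA6 second start: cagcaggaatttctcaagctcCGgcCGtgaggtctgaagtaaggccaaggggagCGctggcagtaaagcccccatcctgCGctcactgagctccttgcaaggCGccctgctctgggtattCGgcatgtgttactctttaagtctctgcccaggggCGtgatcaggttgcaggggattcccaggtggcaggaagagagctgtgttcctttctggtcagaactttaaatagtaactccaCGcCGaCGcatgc

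Over the full 250 bases before each RefSeq start, the first ANXA6 window held 19 CpG dinucleotides and the second held 10. The median over 35116 promoter windows of that length was 11. The first ANXA6 window held 1 GGGCGG (either strand), a motif present in 42.6% of all windows, and 1 CACGTG, a palindrome present in 6.34%. The printed 147 bases of this window held 5 CpG dinucleotides and neither motif. Both matches therefore reach into the 103 bases left out as exon. Neither ANXA6 window held TATAAA, which 10.7% of all windows did, and the second held none of the 3 motifs. Among the paralogues, windows of ANXA2, ANXA4 and ANXA5 reached 28, 36 and 31 CpG dinucleotides, while that of ANXA1 held 0. CACGTG was found elsewhere in the family only in 1 of the 2 windows of ANXA4. These letter matches are not evidence of binding, and no methylation or binding was measured.

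ANXA6 was lower in all 3 libraries of the double group than in any other library. Its counts were 596, 561 and 608 in gLuc, 588, 537 and 547 in gFBXW7, and 302, 444 and 183 in gFBXW7_gKMT2D. After scaling for library size by the trimmed mean of M-values (TMM), the gLuc libraries held 31.6, 31.7 and 29.6 CPM, those of gFBXW7 31.8, 31.9 and 27.9 CPM, and those of gFBXW7_gKMT2D 17.0, 15.1 and 13.1 CPM. The gLuc and gFBXW7 values interleave, and the highest double library lies well under the lowest of the other 6. In bulk RNA, fewer cells carrying a transcript and less transcript per cell cannot be told apart.

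The group means of ANXA6 were 31.0 ± 1.17 CPM in gLuc, 30.5 ± 2.30 in gFBXW7 and 15.1 ± 1.91 in gFBXW7_gKMT2D (SD, n = 3 each). The log2 fold change of ANXA6 was -1.02 (SE 0.134, or -50.6%) in gFBXW7_gKMT2D against gFBXW7, and -1.04 (SE 0.133, or -51.3%) against gLuc. These 2 comparisons share the double libraries, and both chose the gene. Without gFBXW7_gKMT2D replicate 3, the values were -0.93 and -0.95.

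The remaining comparison of ANXA6, gFBXW7 against gLuc, did not choose the gene and was tested. Its log2 fold change was -0.02 (SE 0.131, 95% interval -0.314 to 0.272), with an adjusted p of 0.98 by edgeR's quasi-likelihood test over all genes. The same libraries entered the choice of the gene as controls, so this comparison is not independent of that choice.

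**Figure D1:**
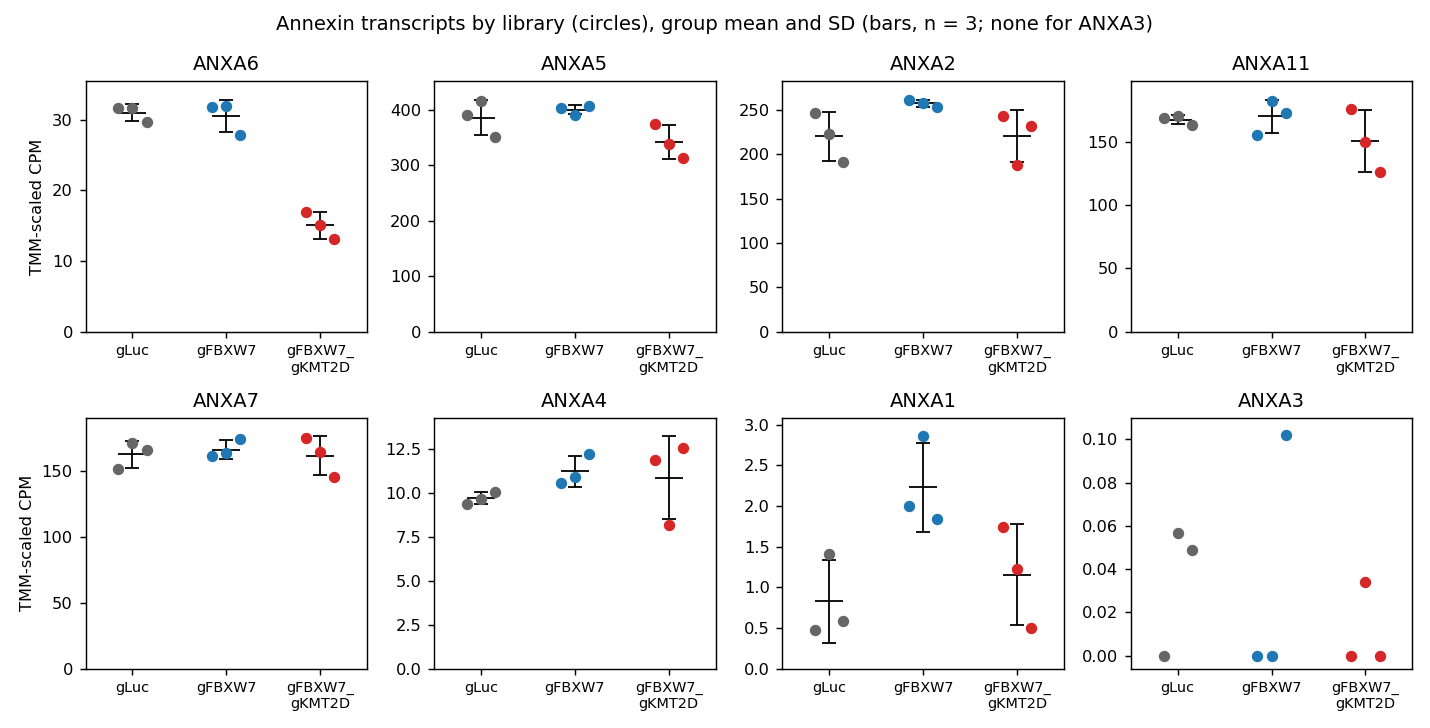
Level of each annexin (TMM-scaled CPM, vertical axes starting at 0 and differing between panels) in the 3 libraries of gLuc, gFBXW7 and gFBXW7_gKMT2D, as circles, with the mean and SD as bars where n = 3 supports them. ANXA6 sits between 13.1 and 17.0 CPM in gFBXW7_gKMT2D and at 27.9 CPM or above elsewhere, whereas the double libraries of ANXA7, ANXA11 and ANXA4 overlap those of both other groups.

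None of the 6 tested paralogues passed the threshold in any comparison. With edgeR and an adjusted p under 0.05, 0 of 6 were called in gFBXW7_gKMT2D against gFBXW7, where 0.0603% of all tested genes were (8 of 13262). The count was 0 of 6 against gLuc, where 0.0528% of all genes were called (7 of 13262), and 0 of 6 in gFBXW7 against gLuc, where 0% were. DESeq2 and limma on log2 RPKM also called 0 of 6 in each comparison. Of all 13262 genes, DESeq2 called 32, 24 and 1 in the same order of comparisons, and limma called 3, 4 and 0. By edgeR at an unadjusted p under 0.05, the counts of paralogues were 0, 0 and 1 of 6, beside 4.22%, 3.61% and 1.58% of all genes. The 1 was ANXA1 in gFBXW7 against gLuc.

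The paralogues nonetheless leaned to 1 side in the comparison within FBXW7-targeted cells. All 6 fold changes were below 0 in gFBXW7_gKMT2D against gFBXW7, with a median log2 of -0.20 beside 0.02 over all tested genes. Against gLuc, 3 were above and 3 below 0, with a median of -0.0035 beside 0.00023. In gFBXW7 against gLuc all 6 were above 0, with a median of 0.13 beside -0.0042. Over all tested genes, 45.4% were below 0 in the first of these comparisons and 49.3% above 0 in the last. The lean in the first rested on single libraries for 2 genes. ANXA7 was at 0.03 without gFBXW7_gKMT2D replicate 3, and ANXA4 was at 0.12 without gFBXW7_gKMT2D replicate 2 and at 0.01 without gFBXW7 replicate 3. In the last comparison, ANXA5, ANXA7 and ANXA11 each had a value below 0 when some single library was left out. The first and the last comparisons share the gFBXW7 libraries, so their opposite signs are not separate observations.

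The spread of single libraries gives the same picture. Against gFBXW7, the double libraries of ANXA1, ANXA2 and ANXA5 were all lower with no overlap (3 of 6 paralogues), and 9.55% of all tested genes had no overlap between these groups. Against gLuc, 0 of 6 paralogues were free of overlap, beside 6.97% of all genes. ANXA1, ANXA2 and ANXA4 were higher in every gFBXW7 library than in every gLuc library (3 of 6, beside 8.86%). ANXA6 was the 1 tested annexin whose double libraries lay outside the range of both other groups, which follows from how it was chosen.

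**Figure D2:**
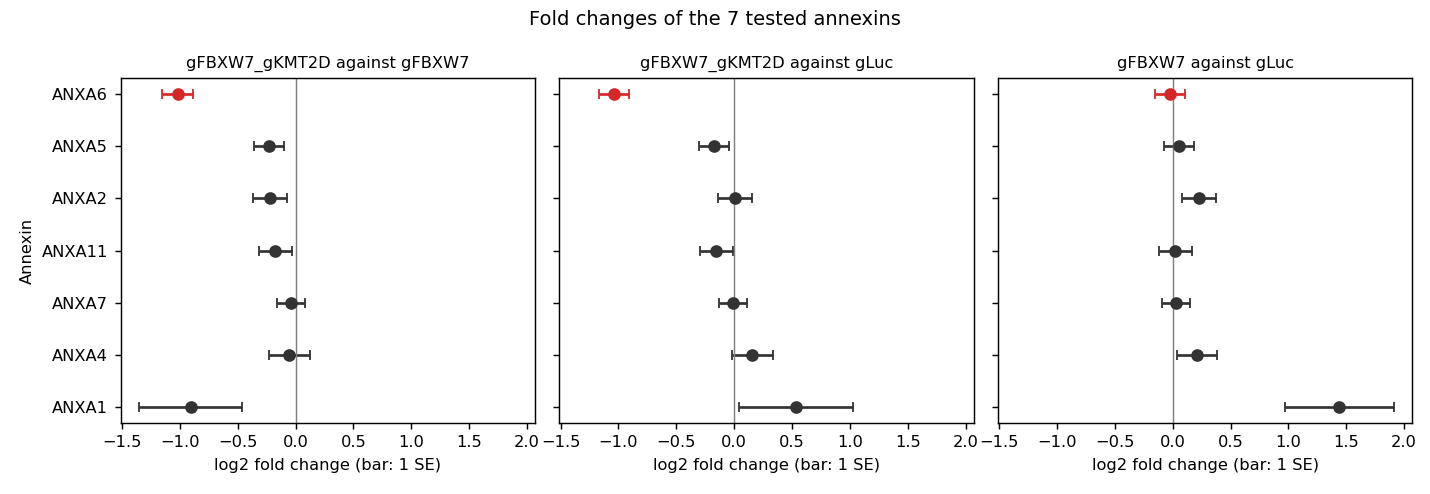
Log2 fold change (horizontal axis) of the 7 tested annexins in the 3 comparisons, with bars of 1 standard error from the edgeR fit. ANXA6 lies at -1.02 and -1.04 where the RNA against KMT2D was added and at -0.02 with the RNA against FBXW7 alone, and the widest bars are those of ANXA1, which had few reads.

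ANXA5 binds phosphatidylserine and assembles into a lattice on membranes. It had 391, 416 and 352 CPM in gLuc, 404, 391 and 406 in gFBXW7, and 374, 338 and 314 in gFBXW7_gKMT2D. The double libraries were the low ones against gFBXW7, with 1 of them above the lowest gLuc library. Its log2 fold change was -0.23 (adjusted p = 1 by edgeR, SE 0.131) against gFBXW7 and -0.18 (adjusted p = 0.9, SE 0.131) against gLuc. The 95% interval against gFBXW7 was -0.52 to 0.0656. Without gFBXW7_gKMT2D replicate 3 the values were -0.16 and -0.12.

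ANXA2 forms a complex with S100A10 at the plasma membrane. It had 247, 223 and 191 CPM in gLuc, 261, 258 and 253 in gFBXW7, and 243, 188 and 232 in gFBXW7_gKMT2D. The gFBXW7 libraries were the highest and lay closest together. ANXA2 had a log2 fold change of -0.22 (SE 0.147) against gFBXW7 and 0.0036 (SE 0.147) against gLuc, both with an adjusted p of 1 by edgeR. Without gFBXW7_gKMT2D replicate 3 they were -0.25 and -0.03.

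The ANXA2 count is uncertain, because the genome holds 3 processed pseudogenes nearly identical to its messenger RNA, and how reads matching several places were counted is not given in the sources used here. ANXA2P2 lies on chromosome 9 from 33624274 to 33625293. It had 69.0 to 136 RPKM (reads scaled to gene length and library total), above the 37.5 to 49.2 RPKM of ANXA2 itself. RPKM divides by the length of the row, which is 5266 bases for ANXA2. In reads, ANXA2 was the higher row in every library, with 3229 to 5530 against 1477 to 3984 for ANXA2P2. Of the reads on the 4 rows, ANXA2 held 55.7% to 59.1% in 8 libraries and 66.3% in gFBXW7_gKMT2D replicate 3. With the 4 rows summed, an alternative chosen after seeing the data, the log2 fold change was -0.29 (adjusted p = 1 by edgeR, SE 0.144) against gFBXW7 and -0.09 (adjusted p = 0.9, SE 0.144) against gLuc.

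ANXA11 and ANXA7 carry long disordered N-terminal tails. ANXA11, which tethers RNA granules to lysosomes, had 169, 170 and 163 CPM in gLuc, 156, 182 and 172 in gFBXW7, and 176, 149 and 126 in gFBXW7_gKMT2D. The double libraries spanned the widest range, with the highest inside the range of gFBXW7. Against gFBXW7, ANXA11 had a log2 fold change of -0.17 (adjusted p = 1 by edgeR, SE 0.143). Against gLuc it was -0.15 (adjusted p = 0.9 by edgeR, SE 0.143). Without gFBXW7_gKMT2D replicate 3 these values were -0.06 and -0.04.

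ANXA7, first described as synexin for its ability to aggregate secretory granules, had 151, 171 and 166 CPM in gLuc, 161, 163 and 174 in gFBXW7, and 175, 164 and 145 in gFBXW7_gKMT2D. The groups overlapped throughout. Its log2 fold changes were -0.04 (SE 0.122, 95% interval -0.315 to 0.231) against gFBXW7 and -0.01 (SE 0.122, 95% interval -0.283 to 0.262) against gLuc. They turned to 0.03 and 0.06 without gFBXW7_gKMT2D replicate 3. Of the 6 paralogues, ANXA7 had the smallest standard errors.

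ANXA4, an annexin known from secretory epithelia, was scarce. It had 9.38, 9.67 and 10.0 CPM in gLuc, 10.5, 10.9 and 12.2 in gFBXW7, and 11.8, 8.18 and 12.6 in gFBXW7_gKMT2D. Both the highest and the lowest of these were double libraries. The log2 fold change of ANXA4 was -0.05 (adjusted p = 1 by edgeR, SE 0.175) against gFBXW7 and 0.16 (adjusted p = 0.9, SE 0.176) against gLuc. These became -0.17 and 0.04 without gFBXW7_gKMT2D replicate 3. ANXA4 overlaps AAK1 on the opposite strand, which had 12477 reads over the 9 libraries against 1799 for ANXA4. The libraries were strand-specific, but whether the counting used strand is not given in the sources used here.

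ANXA1, a glucocorticoid-regulated annexin that signals through formyl peptide receptors, was near the limit of detection. Its counts were 9, 25 and 12 in gLuc, 37, 48 and 36 in gFBXW7, and 31, 36 and 7 in gFBXW7_gKMT2D. Scaled to library size, the gFBXW7 libraries were the high ones (1.83 to 2.86 CPM). The double libraries (0.502 to 1.74 CPM) spread over the range of gLuc (0.477 to 1.41 CPM) and beyond. In gFBXW7 against gLuc, the log2 fold change of ANXA1 was 1.44 (SE 0.469, 95% interval 0.391 to 2.49), with an adjusted p of 0.96 by edgeR. In gFBXW7_gKMT2D against gFBXW7 it was -0.90 (adjusted p = 1 by edgeR, SE 0.445), and -0.60 without gFBXW7_gKMT2D replicate 3. In gFBXW7_gKMT2D against gLuc it was 0.54 (adjusted p = 0.9 by edgeR, SE 0.491), and 0.83 without that library. None of these differences passed the correction.

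ANXA3, which is known from neutrophils, had 5 reads in 4 of the 9 libraries and at most 2 in any of them. It had 0, 1 and 1 reads in gLuc, 0, 0 and 2 in gFBXW7, and 0, 1 and 0 in gFBXW7_gKMT2D. It was tested only when no filter on low counts was applied, with adjusted p-values of 1, 0.97 and 1 by edgeR in the 3 comparisons. No difference was detectable at this depth.

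Expressed per kilobase, the order of the annexins was the same in all 3 groups. Mean RPKM in gLuc was 155 for ANXA5, 63.2 for ANXA7, 42.8 for ANXA2, 28.4 for ANXA11, 10.2 for ANXA6, 2.11 for ANXA4, 0.474 for ANXA1 and 0.0209 for ANXA3. Neighbours in this order did not overlap within gLuc, gFBXW7 or gFBXW7_gKMT2D. The place of ANXA2 depends on how reads shared with its pseudogenes were assigned. It also depends on the length given to each row, 5266 bases for ANXA2 and 2646 for ANXA7. ANXA6 kept rank 5 in the double group, at 4.77 ± 1.02 RPKM (SD, n = 3), beside 2.22 for ANXA4. It made up 3.28% to 3.45% of the summed annexin RPKM in gLuc, 2.85% to 3.33% in gFBXW7 and 1.69% to 1.85% in gFBXW7_gKMT2D.

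**Figure D3:**
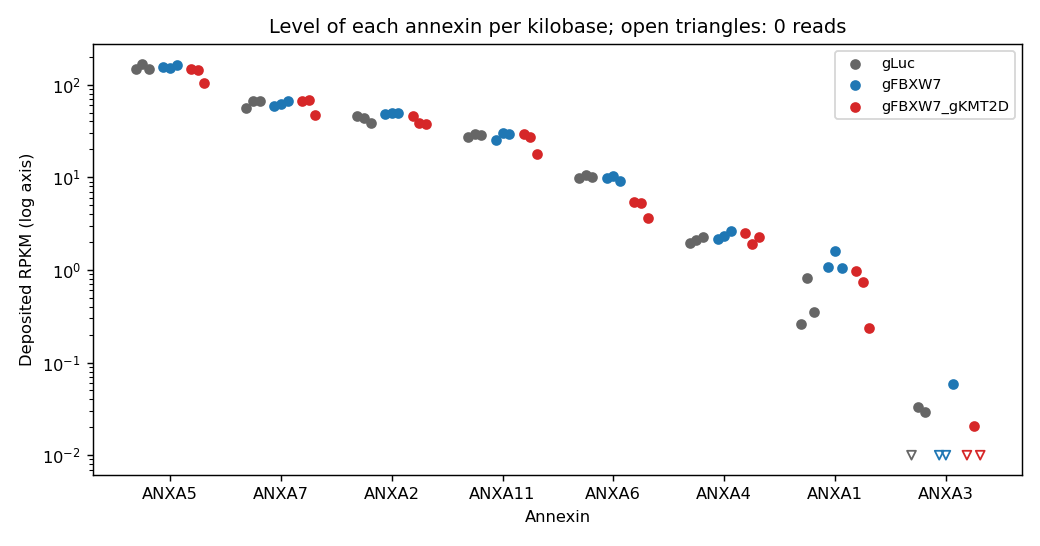
Deposited RPKM of the 8 annexins (log axis) in each library, coloured by group, with open triangles at the foot for libraries without a read. ANXA5 stands at the top near 155 RPKM in gLuc and ANXA3 at the bottom, and the double libraries of ANXA6 sit at 3.60 to 5.44 RPKM, below the 9.16 to 10.6 RPKM of the other groups.

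The ratio of ANXA6 to another annexin within a library does not depend on how libraries are scaled to each other. Per 100 reads of ANXA5, there were 8.04 ± 0.398 reads of ANXA6 in gLuc, 7.63 ± 0.687 in gFBXW7 and 4.39 ± 0.183 in gFBXW7_gKMT2D (SD, n = 3 each). Per 100 reads of ANXA7, the means were 19.1 ± 1.59, 18.4 ± 2.09 and 9.31 ± 0.359 in the same order. Relative to ANXA11 they were 18.5 ± 0.324, 18.1 ± 2.17 and 10.04 ± 0.375.

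Against each of ANXA2, ANXA4, ANXA5, ANXA7 and ANXA11, every double library had a lower ratio than every other library. The ratio to ANXA2 was the one that also differed between the other groups without overlap, at 12.8 to 15.5 per 100 in gLuc and 11.01 to 12.4 in gFBXW7. That to ANXA4 had the widest spread among double libraries, from 105 to 184 per 100 reads. Since ANXA6 was selected on its own difference in these libraries, the lower ratios follow from that choice and carry no test.

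**Figure D4:**
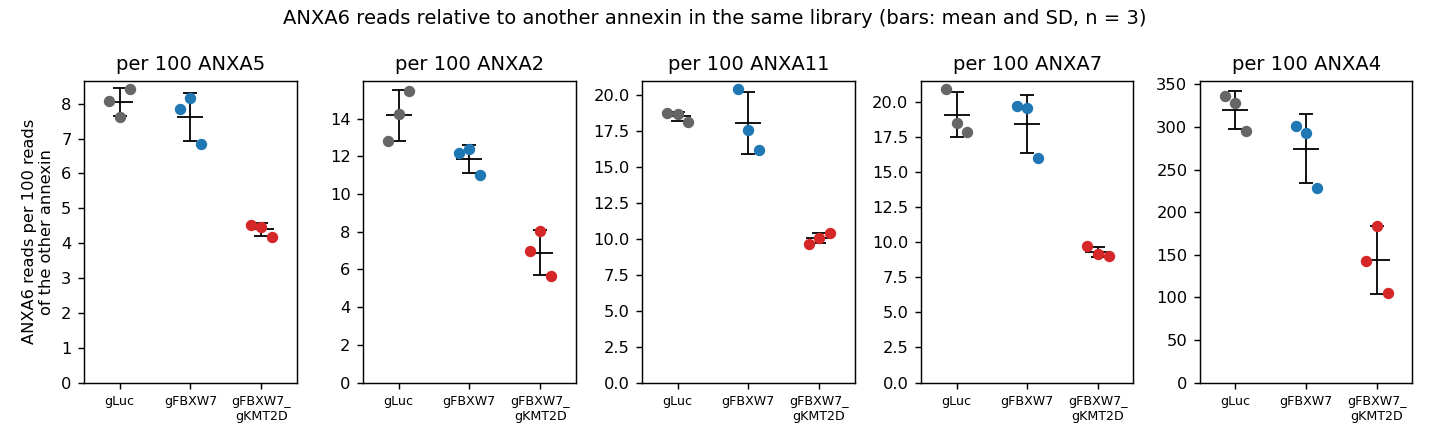
Reads of ANXA6 per 100 reads of each of 5 paralogues (vertical axes from 0, scales differing between panels) in the 3 libraries per group, with mean and SD (n = 3). In every panel the gFBXW7_gKMT2D circles are the lowest, for ANXA5 at 4.39 on average against 8.04 in gLuc.

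Genes whose pattern over the 9 libraries was nearest to that of ANXA6 were ranked by the root-mean-square (RMS) difference in log2 CPM, centred on each gene's mean. Of 9969 genes ranked, the nearest were PTP4A3, a phosphatase (RMS 0.0953), SPIB, a B-lineage transcription factor (0.127), LEFTY2, a NODAL antagonist (0.167), HVCN1, a voltage-gated proton channel (0.199), and CD74, the invariant chain of MHC class II (0.204). When log2(RPKM + 1) was used instead, 3 of these 5 were again among the nearest 5. All 5 had their lowest values in the double libraries. CD74, for example, had 141 to 168 CPM in gLuc, 115 to 152 in gFBXW7 and 60.9 to 61.3 in gFBXW7_gKMT2D.

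CD74 also lies on chromosome 5, 688 kb from ANXA6, with 11 protein-coding genes between them. The paralogues were far from ANXA6 by this measure. ANXA5 was nearest of them (RMS 0.399), with 425 genes closer, followed by ANXA11 (0.413), with 630 closer, and ANXA2 (0.467), with 2086 closer. ANXA7, ANXA4 and ANXA1 had 2728, 5922 and 9816 genes closer. The ranking describes a gene chosen for the same difference and carries no test.

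**Figure D5:**
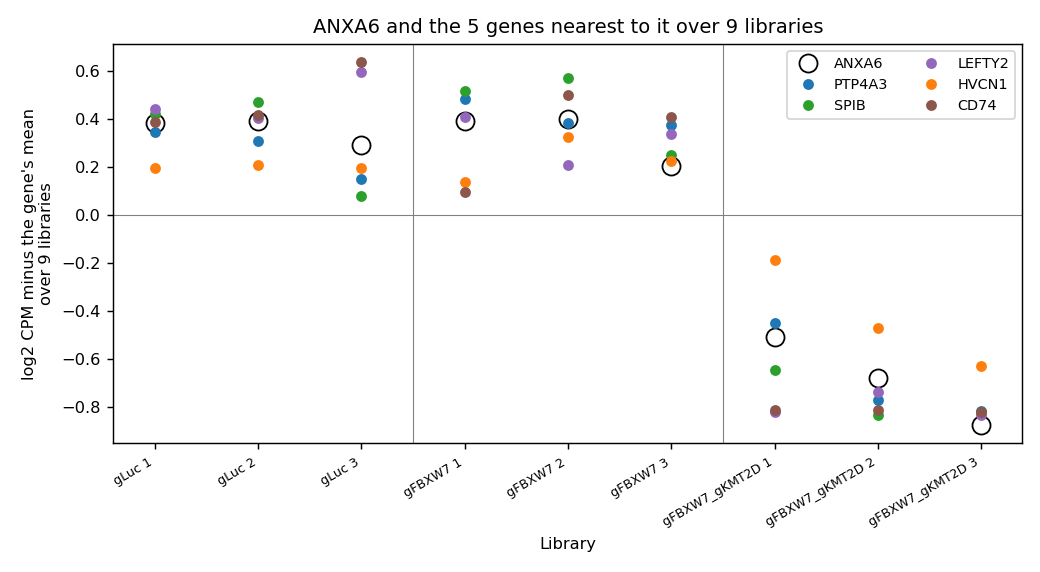
Log2 CPM minus the gene's own mean over 9 libraries (vertical axis), for ANXA6 (open circles) and the 5 nearest genes (filled circles), library by library. All 6 genes are above their mean in the 6 gLuc and gFBXW7 libraries and below it in the 3 gFBXW7_gKMT2D libraries, where HVCN1 is the gene nearest to its mean.

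Genes related to annexins were drawn from 11 lists with 101 entries, of which 99 were in the table and 60 were tested. Of the lists, 10 hold genes whose products act with or beside annexins. The other holds further annexins, the ANXA2 receptor gene ANXA2R and the 3 pseudogenes of ANXA2, of which 5 genes were tested. By edgeR, 0 of the 60 passed an adjusted p of 0.05 in each of the 3 comparisons, beside 0.0603%, 0.0528% and 0% of all tested genes. At an unadjusted p under 0.05 there were 6 in gFBXW7_gKMT2D against gFBXW7, 4 against gLuc and 1 in gFBXW7 against gLuc, beside 4.22%, 3.61% and 1.58% of all tested genes. The pseudogene ANXA2P2 was among the 6. DESeq2 and limma on log2 RPKM also called 0 of the 60, beside 32, 24 and 1 of all tested genes by DESeq2 and 3, 4 and 0 by limma. Median log2 fold changes were -0.06, -0.04 and 0.0055 in that order, beside 0.02, 0.00023 and -0.0042 over all tested genes. Fold changes below 0 numbered 39, 40 and 27 of the 60, beside 45.4%, 50% and 50.7% of all tested genes. A lack of overlap between groups, described below for single partner genes, was found in 9.55%, 6.97% and 8.86% of all tested genes.

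Several classical annexin partners were without a read. S100A10, the partner of ANXA2, and S100A6, a partner of ANXA6 and ANXA11, had 0 reads in all 9 libraries, as did FPR1 and FPR2, the receptors for ANXA1. A count of 0 over the summed 171971414 reads allows up to 0.0174 CPM, which covers counting error only. Whether reads of these rows were lost in the authors' counting was not tested, so the 0 does not show that the cells lack these transcripts. S100A6 overlaps an antisense gene, BX470102.1, and so does S100A11 (AL450992.1), which had 5769 reads. No other gene in GENCODE overlaps S100A10. S100A11, a partner of ANXA1 and ANXA6, was plentiful at 41.2 to 75.5 RPKM. It had 35.9, 37.1 and 31.0 CPM in gLuc, 33.8, 38.4 and 43.8 in gFBXW7, and 31.8, 22.5 and 31.4 in gFBXW7_gKMT2D. The double libraries lay below those of gFBXW7 and overlapped those of gLuc. The log2 fold change of S100A11 was -0.44 (adjusted p = 1 by edgeR, SE 0.169) against gFBXW7 and -0.28 (adjusted p = 0.9, SE 0.169) against gLuc, and -0.51 and -0.35 without gFBXW7_gKMT2D replicate 3. The other S100 gene tested, S100A13, did not exceed 0.501 RPKM. No member of the plasmin system, which ANXA2 and S100A10 activate at the cell surface, was tested, and PLAUR (61 reads) and PLG (39 reads) had the most reads among them.

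EF-hand proteins that bind annexin tails or act beside them at membranes were all tested, 7 of 7. CAPNS1, the small calpain subunit, had 78.3 to 122 RPKM, and sorcin (SRI), a partner of ANXA7, had 55.5 to 85.2 RPKM. Their log2 fold changes against gFBXW7 were -0.15 (SE 0.137) and 0.07 (SE 0.23). Of the ESCRT genes, which act in membrane scission and repair, 11 of 12 were tested, with CHMP4B at 158 to 207 RPKM and VPS4A, the ATPase of the system, at 60.3 to 80.4 RPKM. The untested one, CHMP3, shares its locus with the readthrough gene RNF103-CHMP3. Their fold changes against gFBXW7 were -0.08 (SE 0.181) for CHMP4B and -0.11 (SE 0.125) for VPS4A.

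Of 10 membrane repair genes, 5 were tested, and dysferlin (DYSF) had 1 read in all. AHNAK, a very large scaffold protein that binds S100A10 and ANXA2, ranged from 14.8 to 81.4 RPKM. AHNAK ranged from 29.4 to 81.4 RPKM in gLuc and from 14.8 to 69.3 in gFBXW7_gKMT2D, while the gFBXW7 libraries lay between 40.8 and 44.5. EHD1, a membrane-remodelling ATPase, had a log2 fold change of -0.27 (SE 0.202) against gFBXW7, and -0.04 without gFBXW7_gKMT2D replicate 3. All 5 tested members had fold changes below 0 in that comparison, beside 45.4% of all tested genes, with none called. Against gLuc, 4 were below 0 and 1 above, beside 50% of all tested genes below 0. TRIM72, which encodes a membrane repair protein of muscle, had the largest of these differences and was named after its values were seen. It had 39.1, 18.7 and 17.5 CPM in gLuc, 27.8, 25.6 and 20.1 in gFBXW7, and 14.8, 12.4 and 15.5 in gFBXW7_gKMT2D. The double libraries were lower than all others, and gLuc replicate 1 stood above the rest. For TRIM72 the log2 fold change was -0.78 (adjusted p = 1 by edgeR, SE 0.292) against gFBXW7 and -0.82 (adjusted p = 0.9, SE 0.292) against gLuc, and -0.84 and -0.88 without gFBXW7_gKMT2D replicate 3.

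Of the genes for phosphatidylserine exposure and uptake, 7 of 12 were tested, and the flippase subunit TMEM30A (13.7 to 22.4 RPKM) and the scramblase family member PLSCR1 (8.65 to 13.6 RPKM) were the most abundant. In gFBXW7_gKMT2D against gFBXW7, 5 of the 7 fold changes were above 0 and 2 below. Against gLuc all 7 were below 0, beside 50% of all tested genes. In gFBXW7 against gLuc, 6 were below 0 and 1 above, beside 50.7% below 0. None was called.

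Partners linked to ANXA6 in endosomes and cholesterol handling were tested in 8 of 9 cases. RAB7A, the late endosomal GTPase, and NPC2, a lysosomal cholesterol carrier, had log2 fold changes of -0.05 (SE 0.149) and -0.0046 (SE 0.143) against gFBXW7. Among Ras and kinase partners, 8 of 9 were tested, and EGFR had 1 read. NRAS differed by 0.0034 (SE 0.14) and HRAS by -0.06 (SE 0.337) on the log2 scale against gFBXW7, where all adjusted p-values of these 4 genes were 1 by edgeR.

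PTK2B, a calcium-responsive tyrosine kinase, had 274, 244 and 243 CPM in gLuc, 269, 280 and 253 in gFBXW7, and 205, 215 and 197 in gFBXW7_gKMT2D. Its double libraries were lower than all others. PTK2B had a log2 fold change of -0.38 (adjusted p = 1 by edgeR, SE 0.119) against gFBXW7 and -0.31 (adjusted p = 0.9, SE 0.119) against gLuc. Without gFBXW7_gKMT2D replicate 3 the values were -0.34 and -0.27. FYN, a Src-family kinase, had 13.9, 14.5 and 11.7 CPM in gLuc, 17.5, 16.3 and 16.3 in gFBXW7, and 19.8, 17.4 and 17.4 in gFBXW7_gKMT2D. The gLuc libraries were lowest. FYN had a log2 fold change of 0.32 (adjusted p = 0.96 by edgeR, SE 0.133) in gFBXW7 against gLuc and 0.45 (adjusted p = 0.9, SE 0.133) in gFBXW7_gKMT2D against gLuc. The second was 0.48 without gFBXW7_gKMT2D replicate 3.

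Copines and tethering C2-domain proteins bind membranes with calcium as annexins do, and 7 of 12 were tested. CPNE1 (27.2 to 42.4 RPKM) and ESYT1 (20.4 to 39.2 RPKM) were the most abundant, with log2 fold changes of -0.09 (SE 0.132) and -0.30 (SE 0.158) against gFBXW7. CPNE4 had 9, 13 and 19 reads in gLuc, 9, 8 and 9 in gFBXW7, and 22, 41 and 19 in gFBXW7_gKMT2D. Scaled to library size, its double libraries were the highest. CPNE4, first of the 60 by unadjusted p against gFBXW7, had a log2 fold change of 1.48 (adjusted p = 0.3 by edgeR, SE 0.287) against gFBXW7 and 0.89 (adjusted p = 0.9, SE 0.268) against gLuc, and 1.48 and 0.88 without gFBXW7_gKMT2D replicate 3. CPNE3 had a log2 fold change of -0.43 (adjusted p = 0.96 by edgeR, SE 0.191) in gFBXW7 against gLuc.

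With 1 surrogate variable in the model, CPNE4 and PTK2B passed the threshold in gFBXW7_gKMT2D against gFBXW7, where 124 of all tested genes then did (0.935%), beside 8 without it. The log2 fold changes were then 1.47 (adjusted p = 0.036, SE 0.296) for CPNE4 and -0.38 (adjusted p = 0.045, SE 0.0798) for PTK2B by edgeR. No paralogue of ANXA6 did so in any comparison. Their adjusted p-values against gFBXW7 in this model, by edgeR, were 0.2 for ANXA1, 0.22 for ANXA2 and 0.23 for ANXA5. They were 0.4 for ANXA11, 0.79 for ANXA4 and 0.84 for ANXA7.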

How the data were processed

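Column-purified, poly(A)-selected RNA went into strand-specific dUTP libraries, per the labels' protocols. Reads were handled with STAR, Trimmomatic, DESeq2 and featureCounts on GRCh38, per the submitters' processing notes, and versions are not given in the sources used here. The deposited table holds the authors' whole-number read count per gene and library, and a deposited RPKM, which recomputation from count, length and library total matched to a relative 8.5e-07. An unnamed row equal to the library total was left out. The count test used edgeR 4.0.16 in R 4.3.3: filterByExpr, TMM scaling, 1 quasi-likelihood fit of group on all 9 libraries, and Benjamini-Hochberg adjustment over 13262 genes at 0.05. A standard error is the absolute log2 fold change over the root of its F statistic. Levels were compared between genes as RPKM, or in reads where the text says so. Replicate pairs gave chi-squared values of 6.36 to 231 per degree of freedom, so no library repeats another. All members, partner lists and comparisons were chosen with earlier results of these data known. Partner genes were named if called, if among the 2 highest of a list by RPKM, or if among the 2 smallest p-values of a comparison; others named (S100A6, S100A10, FPR1, FPR2, CHMP3, DYSF, EGFR, TRIM72) were chosen after their values were seen. Low or absent levels are stated for counting error only. The pipeline was tested on simulated data. Alternatives used DESeq2 1.42.0, limma 3.58.1 with a pseudocount of 1, and sva 3.50.0. Figures were drawn with matplotlib 3.10.9. GENCODE v29 gave gene positions.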

Additional observations from a re-analysis of the deposited data

How the results depend on the processing

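None of the paralogues of ANXA6 was called in any comparison under any of the 20 alternatives. At most 0.935% of all tested genes were called in any of them, and several alternatives called 0 genes. A count of 0 among so few paralogues therefore says little about them. The log2 fold change of ANXA6 lay from -1.02 to -0.916 against gFBXW7 and from -1.05 to -0.972 against gLuc over 11 alternatives. With 1 library left out, it lay from -1.11 to -0.926 and from -1.13 to -0.952. ANXA6 was chosen for its difference in these libraries, so its kept sign follows from that choice and carries no test. For the 7 tested annexins, 24 of 417 alternative values changed sign. The cause was not tested. In gFBXW7_gKMT2D against gLuc, ANXA2 was at -0.00712 with no filter, -0.0675 by limma on RPKM, -0.0781 with 1 surrogate variable, -0.0933 with its pseudogenes, and -0.0787 to 0.107 with 1 library left out. There, ANXA7 was at 0.00586 with upper quartile scaling, 0.00132 with genes kept from a mean of 50 reads, 0.041 with 1 surrogate variable, and -0.072 to 0.0608 with 1 library left out. In gFBXW7 against gLuc, limma gave ANXA7 -0.00666 and ANXA11 -0.0196. With 1 library left out, ANXA7 lay at -0.0183 to 0.0689, ANXA11 at -0.0438 to 0.0818, ANXA5 at -0.0184 to 0.108 and ANXA6 at -0.0686 to 0.0411, above 0 without gFBXW7 replicate 3. In gFBXW7_gKMT2D against gFBXW7, ANXA4 then lay at -0.168 to 0.119 and ANXA7 at -0.103 to 0.0341.

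Counts over all genes moved more. Against gFBXW7, the 8 calls became 5 with upper quartile scaling, 33 with no filter, 32 by DESeq2, 3 by limma, 124 with 1 surrogate variable, 0 with the 6 compared libraries alone, and 0 to 7 with 1 library left out. Against gLuc, the 7 calls became 21 with no filter, 24 by DESeq2, 4 by limma, 55 with 1 surrogate variable, 2 with the 6 compared libraries alone, and 2 to 8 with 1 library left out. In gFBXW7 against gLuc, DESeq2 called 1. Partner genes called against gFBXW7 numbered 2 with 1 surrogate variable. With the replicate block, 2 genes were called in each comparison with the double group. Replicate numbers did not pair the libraries: same-numbered libraries had correlations of -0.586 to 0.454, 4 of 9 above 0.1, and the best match shared the number in 6 of 18 cases. Depth limits ANXA1 and ANXA3, with 241 and 5 reads in all.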
